A study of Mus musculus with 2 samples.

Results

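The TAM receptors are the receptor tyrosine kinases Tyro3, Axl and Mertk, and their bridging ligands are the secreted proteins Gas6 and Pros1 (protein S). The 5 genes were taken by symbol from the gene list of both libraries, which holds 33696 genes, and each symbol stood on 1 row: Axl (ENSMUSG00000002602), Mertk (ENSMUSG00000014361), Tyro3 (ENSMUSG00000027298), Gas6 (ENSMUSG00000031451) and Pros1 (ENSMUSG00000022912). They were measured by droplet scRNA-seq with 3′ capture in CD45+ cells sorted from the thalamus of mice whose strain the labels give as C57B6/J, after a cortical injury (cortical ablation injury, CAI). One library came from mice given control Ab (normal rat IgG) and 1 from mice given anti-CD9 Ab (clone KMC8, against the tetraspanin CD9). Per the methods of the study, antibody at 1.0 µg/µl was injected from day 7 to day 19 after CAI and cells were collected on day 21. Both groups therefore carry the injury and an injected antibody, and no uninjured or uninjected library enters here. With 1 library per antibody, the antibodies, the pools of mice and the libraries cannot be told apart, so every comparison between them is a description with no test. Intervals of levels and shares are exact 95% intervals (Poisson for UMI sums, binomial for shares of cells). Those of log2 ratios are approximate 95% intervals, from a normal approximation to the counting error of both sums. All cover counting error only.

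As background, Gas6 and Pros1 carry a gamma-carboxylated domain that binds phosphatidylserine on dying cells and stressed membranes, and their other end binds a TAM receptor on a phagocyte. Mertk is the receptor best known for steady-state clearance by microglia and tissue macrophages. Axl is known as a receptor that inflamed or interferon-exposed phagocytes raise and that prefers Gas6, whereas Tyro3 is known mainly from neurons and oligodendrocytes. TAM signalling is also known to restrain cytokine and interferon responses through the Socs proteins. Of these genes, the study looked at the RNA of Axl and Mertk across its microglial clusters. It then asked whether Axl takes part in how CD9-high microglia of the injured thalamus take up synapses.

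The start regions of the 2 receptors that microglia express are shown because these receptors had unlike levels across the same microglial states. Each run is 250 bases before and 50 bases after the RefSeq gene start in GRCm38.p6, given on the strand of the gene, with motif matches in capitals. The counts were made on GRCm39 per the submitters' processing notes, whereas the methods of the study name an earlier build, so these coordinates belong to the reference table and not to the count files.
Axl, chr7:25788684-25788983, minus strand: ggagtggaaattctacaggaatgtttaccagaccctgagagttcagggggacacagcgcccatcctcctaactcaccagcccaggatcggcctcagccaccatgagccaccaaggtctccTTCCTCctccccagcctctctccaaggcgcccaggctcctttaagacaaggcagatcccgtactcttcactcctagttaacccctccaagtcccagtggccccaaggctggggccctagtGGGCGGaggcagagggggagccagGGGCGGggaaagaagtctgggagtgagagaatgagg
Mertk, chr2:128698665-128698964, plus strand: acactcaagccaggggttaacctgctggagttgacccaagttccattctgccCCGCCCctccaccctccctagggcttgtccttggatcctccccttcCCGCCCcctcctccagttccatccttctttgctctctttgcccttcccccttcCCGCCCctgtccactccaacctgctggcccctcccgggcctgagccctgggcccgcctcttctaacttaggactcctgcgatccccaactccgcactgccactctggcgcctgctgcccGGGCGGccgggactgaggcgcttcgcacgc
The motifs searched on both strands were the GC box GGGCGG, the purine-rich ETS core GAGGAA, the AP-1 site TGANTCA, the interferon-stimulated response element (2 GAAA blocks with 2 bases between them) and the TATA box TATAAA. Axl held 2 GC boxes and 1 ETS core, and Mertk held 4 GC boxes and no ETS core. Of all 32851 promoters in the table, 35.7% held the GC box, 28.3% the ETS core, 7.81% the AP-1 site, 3.44% the interferon element and 13.6% the TATA box. All 5 genes matched a promoter in that table. Tyro3 held 6 GC boxes, Gas6 4 and Pros1 5, and none of the 5 windows held the AP-1, interferon or TATA letters. GC content was 60.3% for Axl, 66.0% for Mertk, 73.3% for Tyro3, 58.3% for Gas6 and 66.7% for Pros1, against a median of 52.7% over all promoters.

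The control Ab library held 12245 barcodes and 38042608 UMIs, and the anti-CD9 Ab library 15173 barcodes and 40825201 UMIs. The quality limits of the study, 200 to 7500 genes and at most 2% mitochondrial counts, kept 7467 and 9162 cells with median depths of 1880 and 1419 UMIs. The libraries shared 54 barcodes, of which 18 were kept in both. Clustering without the 5 genes gave 25 clusters, of which 17 could be named from marker genes. The makeup of the libraries was unlike: microglia-like cells were 25.2% of the control Ab cells and 9.18% of the anti-CD9 Ab cells, monocyte/macrophage-like cells 3.60% and 12.9%, and neutrophil-like cells 0.884% and 28.5%. Clusters left unnamed held 18.0% and 29.7% of the cells. A UMI of Ptprc, which encodes CD45, was found in 72.8% and 76.5% of microglia-like cells but in 12.9% and 12.8% of astrocyte-like cells, so the sorted cells included some without a count of the gene that defines their label.

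Among the named classes, Mertk was at its highest level in microglia-like cells in both libraries. Summed over the cells of the class and scaled to their total UMIs (CPM), Mertk stood at 1226 CPM (1204 to 1249, 11693 UMIs) with control Ab against 1372 CPM (1330 to 1415, 4028 UMIs) with anti-CD9 Ab. Monocyte/macrophage-like cells followed with control Ab, at 585 CPM (556 to 616), ahead of astrocyte-like cells at 502 CPM (453 to 554), and the intervals of these neighbours did not overlap. That order depended on predicted doublets, the barcodes scored as holding more than 1 cell. With these left out, control Ab monocyte/macrophage-like cells stood at 461 CPM (426 to 497), which overlapped astrocyte-like cells. With anti-CD9 Ab the order below microglia changed to astrocyte-like cells at 590 CPM (446 to 766), oligodendrocyte-like cells at 300 CPM (206 to 421) and monocyte/macrophage-like cells at 233 CPM (222 to 245). Oligodendrocyte-like and monocyte/macrophage-like cells overlapped there. T cell-like cells, which should lack Mertk, held 7.64 CPM (5.38 to 10.5) and 11.7 CPM (8.03 to 16.6).

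Axl had another order among the named classes. With control Ab it was highest in monocyte/macrophage-like cells, at 184 CPM (168 to 201, 477 UMIs), then in microglia-like cells at 116 CPM (110 to 123, 1110 UMIs) and dendritic cell-like cells at 76.8 CPM (57.5 to 100.5, 53 UMIs). With anti-CD9 Ab, microglia-like cells stood at 96.4 CPM (85.5 to 108, 283 UMIs), monocyte/macrophage-like cells at 71.2 CPM (64.9 to 78.0, 466 UMIs) and dendritic cell-like cells at 51.9 CPM (41.7 to 63.7, 90 UMIs), each apart from the next. Astrocyte-like cells were above them at 147 CPM (80.6 to 247), but on 14 UMIs from 78 cells, and overlapped microglia-like cells. T cell-like cells held 9.08 CPM (6.60 to 12.2) and 7.34 CPM (4.48 to 11.3). The number of Mertk UMIs for each Axl UMI, which sets unlike transcripts side by side and is of use only between classes, was 10.5 and 14.2 in microglia-like cells and 3.18 and 3.27 in monocyte/macrophage-like cells, control Ab first. The near-equal values of the latter class depended on predicted doublets. With these left out, it held 663 Mertk and 278 Axl UMIs with control Ab against 995 and 257 with anti-CD9 Ab.

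Tyro3 was barely found in phagocytes. Microglia-like cells held 2 UMIs with control Ab against 0 with anti-CD9 Ab, and monocyte/macrophage-like cells 1 and 0. Of the 70 Tyro3 UMIs kept with control Ab, 25 lay in oligodendrocyte-like cells (43.9 CPM, 28.4 to 64.8) and 24 in an unnamed cluster (18.7 CPM, 12.0 to 27.8). That cluster had the neuronal markers Nrxn3 and Meg3 among its top genes, but also 87.5% of the oligodendrocyte and 87.5% of the astrocyte markers raised. Of the 10 kept with anti-CD9 Ab, 1 lay in oligodendrocyte-like cells and 2 in that cluster, which allows no comparison at this depth. T cell-like cells held 12 and 4 Tyro3 UMIs.

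Among the named classes both ligands were highest in microglia-like cells, the class that also had the most Mertk. Gas6 stood there at 85.8 CPM (80.0 to 91.9, 818 UMIs) and 62.7 CPM (54.0 to 72.4, 184 UMIs), control Ab first. Pros1 stood at 298 CPM (287 to 309, 2839 UMIs) and 272 CPM (253 to 291, 797 UMIs). Microglia-like cells gave 71.3% of all kept Gas6 UMIs and 71.7% of all Pros1 UMIs with control Ab, and 60.5% and 65.7% with anti-CD9 Ab. Astrocyte-like cells were next for Gas6, at 40.5 CPM (27.5 to 57.5, 31 UMIs) and 31.6 CPM (6.52 to 92.3, 3 UMIs), and overlapped monocyte/macrophage-like cells in each library. With anti-CD9 Ab they also overlapped microglia-like cells. Mural cell/fibroblast-like cells had 107 CPM of Pros1 (46.4 to 212) with control Ab, on 8 UMIs. T cell-like cells had 4.33 and 2.20 CPM of Gas6, levels that read as background, and 17.1 and 13.9 CPM of Pros1. Whether their Pros1 is background is not settled, since neutrophil-like cells had less with anti-CD9 Ab, 5.25 CPM (3.06 to 8.40).

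**Figure D1:**
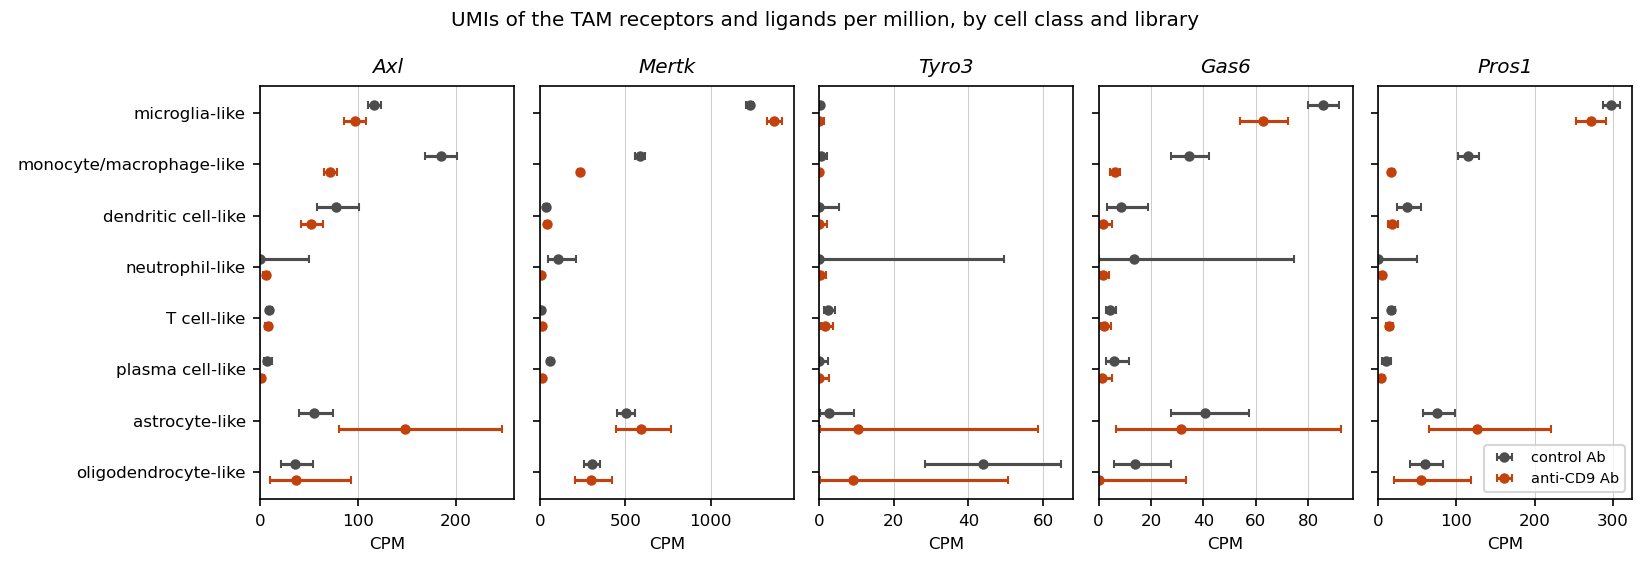
Level of each gene in CPM (horizontal axes, each from 0) in the 8 classes with at least 50 cells in each library, control Ab in grey and anti-CD9 Ab in orange, with exact 95% Poisson intervals. Of these classes, microglia-like cells have the highest Mertk, Gas6 and Pros1 in both libraries, though for Gas6 with anti-CD9 Ab they overlap astrocyte-like cells. Axl is highest in monocyte/macrophage-like cells with control Ab at 184 CPM, and Tyro3 stands out in oligodendrocyte-like cells with control Ab at 43.9 CPM.

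UMIs of microglial marker genes were found in every class. The summed level of the 12 microglial marker genes was 15250 and 9463 CPM in microglia-like cells, 1998 and 1548 CPM in astrocyte-like cells, 3826 and 1554 CPM in oligodendrocyte-like cells and 450 and 198 CPM in T cell-like cells, control Ab first. Astrocyte-like cells had 502 and 590 CPM of Mertk beside those markers, and oligodendrocyte-like cells 304 and 300 CPM. The part of microglial RNA in these Mertk levels was not tested.

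Thinning every cell to 1000 UMIs set the classes at the same depth. A Mertk UMI was then found in 64.4% (62.2 to 66.6) of 1848 control Ab and 69.5% (66.2 to 72.6) of 822 anti-CD9 Ab microglia-like cells, against 0.489% (0.253 to 0.852) and 0.998% (0.457 to 1.89) of T cell-like cells. The unthinned shares were 88.6% and 89.5% in microglia-like cells and 1.15% and 1.84% in T cell-like cells. Pros1 followed with 28.1% (26.1 to 30.2) and 24.2% (21.3 to 27.3) of microglia-like cells, against 1.51% and 1.44% of T cell-like cells. Axl was found in 9.31% (8.02 to 10.7) and 7.54% (5.83 to 9.57) of microglia-like cells and in 0.896% and 0.998% of T cell-like cells. Gas6 was found in 7.36% (6.21 to 8.65) and 6.08% (4.55 to 7.94) of microglia-like cells and in 0.530% and 0.111% of T cell-like cells. The intervals of the libraries overlapped for each of these 4 genes in microglia-like cells. Unthinned, the shares of microglia-like cells were 31.4% and 27.1% for Axl, 29.9% and 17.2% for Gas6 and 63.3% and 54.0% for Pros1. Tyro3 was found in 0 of 1848 and 0 of 822 thinned microglia-like cells, and a count of 0, taken as allowing up to 3 cells, limits the share of cells with a UMI at this depth, not the share expressing the gene, to 0.162% and 0.365%. Median depth was 3066 and 3327 UMIs in microglia-like cells and 1552 and 2281 UMIs in T cell-like cells, and 37 and 19 microglia-like and 339 and 75 T cell-like cells were too shallow to enter.

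Within microglia-like cells the anti-CD9 Ab library had less of both ligands and of Axl, and slightly more Mertk. As a log2 ratio, anti-CD9 Ab to control Ab, the difference was -0.45 (-0.68 to -0.22) for Gas6, -0.27 (-0.46 to -0.08) for Axl, -0.13 (-0.25 to -0.02) for Pros1 and 0.16 (0.11 to 0.21) for Mertk. In fold terms, Gas6 was 1.37-fold and Axl 1.21-fold lower and Mertk 1.12-fold higher. None of these 4 ratios reached a log2 size of 1, a fold that 4.34% of the 10927 genes with at least 50 UMIs in these cells passed downwards and 3.3% upwards, and the median of those genes was 0.01. The Axl value depended on how cells were weighed: with each cell given the same weight it was 0.10, with the sign turned. Neutrophil markers moved the other way in the same cells, from a summed 532 CPM to 1612 CPM, with all 13 higher, and the 12 T cell markers from 278 to 36.5 CPM, all lower. The 12 microglial markers went from a summed 15250 to 9463 CPM in these cells, with 11 of them lower. The part of these marker shifts in the ratios was not tested. Predicted doublets were 5.20% and 13.1% of the class.

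The microglia-like cells fell into a homeostatic-like cluster, led by Siglech and P2ry12, and a damage-associated-like cluster, led by Lpl, Cst7 and Spp1. The former held 948 cells of the control Ab and 442 of the anti-CD9 Ab library, the latter 937 and 399, so that this cut was near even in each library. That balance depended on the clustering. When the microglia-like cells were clustered again alone, the larger of 2 damage-associated-like clusters held 31.2% of the control Ab but 15.1% of the anti-CD9 Ab cells, and the smaller 2.71% and 5.11%. Axl was higher in the damage-associated-like cluster, with 151 CPM (141 to 161, 863 UMIs) against 64.9 CPM (57.0 to 73.5, 247 UMIs) with control Ab, and was 111 CPM (95 to 130, 163 UMIs) against 81.5 CPM (67.6 to 97.5, 120 UMIs) with anti-CD9 Ab. The log2 difference between the clusters was 1.22 (1.01 to 1.42) with control Ab, yet 0.45 (0.11 to 0.79) in the anti-CD9 Ab library, and these intervals did not overlap. The 5 genes were not used to form these clusters.

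Mertk went the other way between the states. It stood at 1502 CPM (1463 to 1541) in the homeostatic-like and 1043 CPM (1017 to 1070) in the damage-associated-like cluster with control Ab, and at 1714 CPM (1647 to 1782) and 1029 CPM (977 to 1082) with anti-CD9 Ab. Pros1 was also lower in the damage-associated-like cluster, at 242 CPM (229 to 255) against 382 CPM (363 to 402) with control Ab against 221 CPM (197 to 246) against 322 CPM (294 to 352) with anti-CD9 Ab. Gas6 was level with control Ab, at 88.0 CPM (80.5 to 96.1) and 82.5 CPM (73.6 to 92.1), and stood at 55.4 CPM (44.0 to 68.8) and 70.0 CPM (57.1 to 84.8) with anti-CD9 Ab, damage-associated-like first. Thus 23.2 and 21 Mertk UMIs were counted for each Axl UMI in homeostatic-like cells and 6.92 and 9.23 in damage-associated-like cells, control Ab first.

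Between the antibodies, Axl had a log2 ratio of -0.44 (-0.68 to -0.19) in the damage-associated-like cluster and 0.33 (0.01 to 0.64) in the homeostatic-like cluster. Mertk had -0.02 (-0.10 to 0.06) and 0.19 (0.12 to 0.26), Gas6 -0.67 (-1.01 to -0.33) and -0.24 (-0.56 to 0.08), and Pros1 -0.13 (-0.31 to 0.04) and -0.25 (-0.40 to -0.10), in the same order. Cd9 itself, the antibody target, was lower by -1.10 (-1.15 to -1.05) and -0.99 (-1.06 to -0.92). In the damage-associated-like cluster, neutrophil markers summed to 469 and 2482 CPM and T cell markers to 379 and 42.4 CPM, control Ab first. Microglial markers summed there to 13895 and 7733 CPM, with all 12 lower. Predicted doublets were 13.8% of that cluster and 1.65% of the homeostatic-like one. The part of other cells' RNA in the cluster ratios was not tested. In the clustering of microglia-like cells alone, the damage-associated-like clusters gave Axl a ratio of -0.06 (-0.36 to 0.25) on 718 and 97 UMIs, and the homeostatic-like clusters 1.06 (0.55 to 1.57) on 67 and 58 UMIs. The Axl ratio in the damage-associated state therefore depended on where that state was cut. Gas6 kept its sign there, at -0.93 (-1.45 to -0.40) and -0.50 (-0.96 to -0.04).

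The finer clustering also showed how uneven Axl was among microglia. In the largest homeostatic-like cluster, of 529 control Ab and 136 anti-CD9 Ab cells, Axl stood at 10.2 CPM (4.87 to 18.7, 10 UMIs) with control Ab, near the T cell-like level of 9.08 CPM, and at 69.2 CPM (43.9 to 104, 23 UMIs) with anti-CD9 Ab. In the same control Ab cells Mertk was at 1461 CPM (1386 to 1538). With control Ab the highest Axl level was in a small interferon-responsive-like cluster led by Cxcl10, Ifit3 and Ifit2, at 307 CPM (211 to 431, 33 UMIs in 22 cells). With anti-CD9 Ab that cluster stood at 154 CPM (66.3 to 303, 8 UMIs in 14 cells), the damage-associated-like clusters at 144 CPM each and an unnamed cluster of 8 cells at 160 CPM (64.3 to 330, 7 UMIs), and all these intervals overlapped. An unnamed cluster led by Saa3 and Cxcl13 held 17.9% of the control Ab and 37.2% of the anti-CD9 Ab microglia-like cells. Its Axl levels, 97.1 CPM (80.1 to 117) and 87.8 CPM (71.0 to 107), lay between those of the homeostatic-like and damage-associated-like clusters. They overlapped the smaller damage-associated-like cluster in each library and, with anti-CD9 Ab, both homeostatic-like clusters. The smaller homeostatic-like cluster had 59.3 CPM of Axl (44.9 to 76.8) with control Ab and 73.5 CPM (51.2 to 102) with anti-CD9 Ab.

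**Figure D2:**
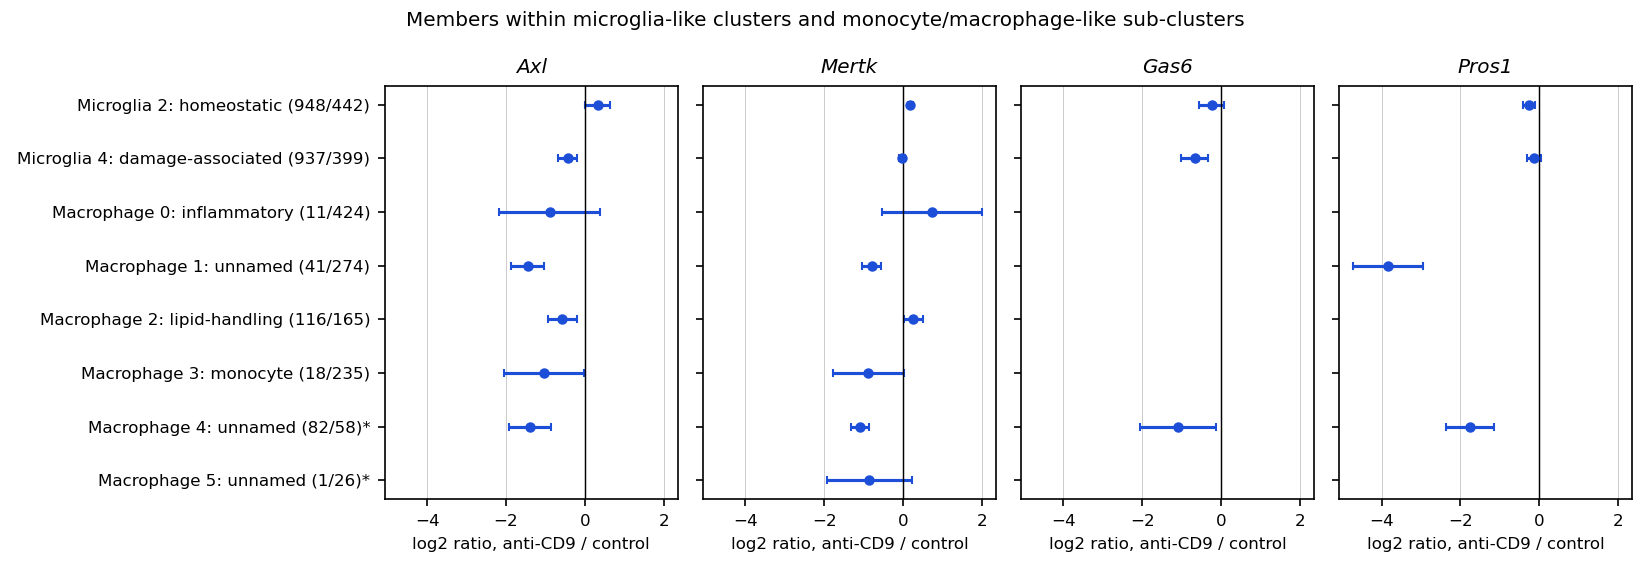
Log2 ratio of anti-CD9 Ab over control Ab (horizontal axis) for 4 genes in the microglia-like clusters and the monocyte/macrophage-like sub-clusters, with 95% counting intervals and, in brackets, control Ab and anti-CD9 Ab cells; an asterisk marks sub-clusters made up mostly of predicted doublets, and no point is drawn under 50 UMIs or where a library had 3 or fewer. Axl lies at 0.33 in homeostatic-like and -0.44 in damage-associated-like microglia, and every drawn Axl point of the macrophages is below 0.

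Both receptors were counted in the same microglia. In microglia-like cells thinned to 2000 UMIs, 14.1% (12.3 to 16) of 1405 control Ab cells and 15.1% (12.6 to 18.0) of 714 anti-CD9 Ab cells held UMIs of Axl and of Mertk. Mertk without Axl was found in 69.6% and 72.3%, Axl without Mertk in 3.42% (2.53 to 4.50) and 1.68% (0.871 to 2.92), and neither in 12.9% and 10.9%. Among cells with an Axl UMI, 80.5% (75 to 85.2) held Mertk with control Ab against 90.0% (83.2 to 94.7) with anti-CD9 Ab. Among cells with no Axl UMI, 84.4% (82.2 to 86.4) and 86.9% (83.9 to 89.5) did.

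Within each library, Axl had its lowest value in the microglia-like cells with no Cd9 UMI, though the intervals overlapped in part. At 2000 UMIs per cell, 84.6% of the control Ab but 50.4% of the anti-CD9 Ab microglia-like cells held 3 or more Cd9 UMIs. With control Ab, Axl stood at 22.2 CPM (2.69 to 80.3, 2 UMIs in 45 cells) in cells with no Cd9 UMI, 43.9 CPM (24.5 to 72.3, 15 UMIs) in those with 1 to 2 and 114 CPM (101 to 128, 271 UMIs) in those with 3 or more. With anti-CD9 Ab the levels were 47.2 CPM (22.6 to 86.7, 10 UMIs in 106 cells), 103 CPM (76.6 to 135, 51 UMIs) and 103 CPM (80.7 to 129, 74 UMIs). The interval of the cells with no Cd9 UMI overlapped that of cells with 1 to 2 in each library, and with anti-CD9 Ab also that of cells with 3 or more. Cd9 itself was lower with anti-CD9 Ab, so the same Cd9 count picks different cells in each library, and these levels are read within a library only. In the control Ab library Mertk ran against Cd9, from 1656 CPM (1400 to 1944) with no Cd9 UMI to 1180 CPM (1136 to 1224) with 3 or more, and with anti-CD9 Ab it was 1458 CPM (1300 to 1629) and 1379 CPM (1295 to 1468).

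**Figure D3:**
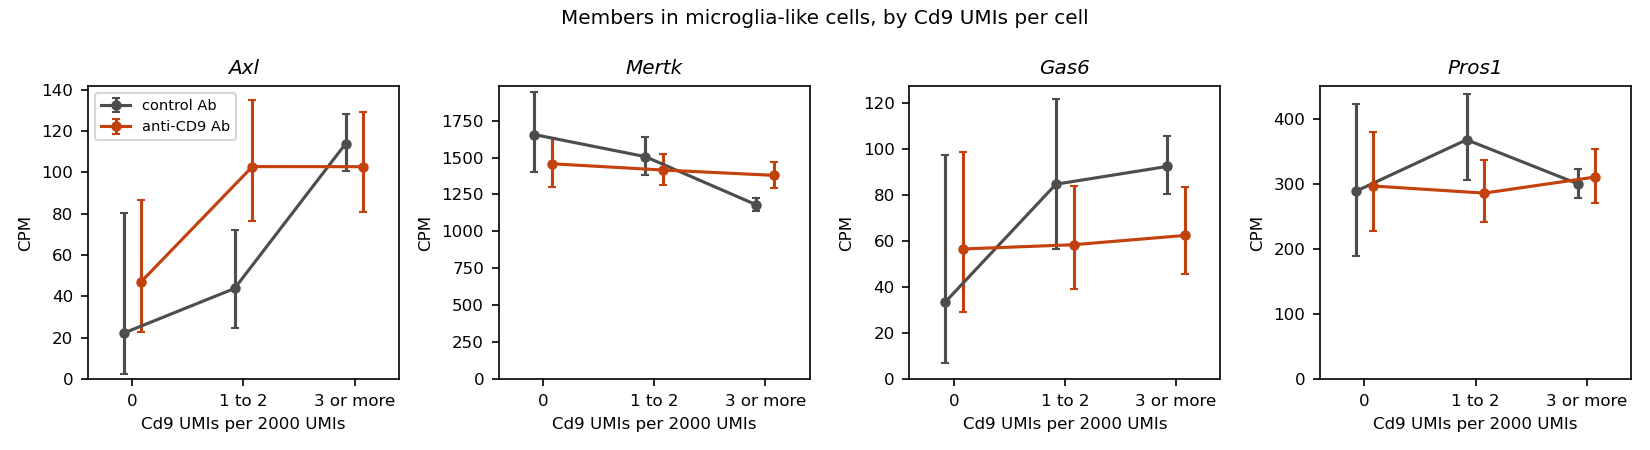
Level of each gene in CPM (vertical axes, each from 0) in microglia-like cells thinned to 2000 UMIs and split by Cd9 UMIs per cell, control Ab in grey and anti-CD9 Ab in orange, with exact 95% Poisson intervals; lines join points of a library, within which alone the levels compare. With control Ab, Axl goes from 22.2 to 114 CPM and Mertk from 1656 to 1180 CPM across the Cd9 classes.

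In monocyte/macrophage-like cells Axl, Gas6, Pros1 and Mertk were lower with anti-CD9 Ab, each past a log2 size of 1, but only for Axl was that so under each of the 10 alternatives tried. Mertk passed it in 2 of 10, and was level at -0.02 with up to 5% mitochondrial counts and at 0.06 with no integration. These counts are of point values. The Axl interval ran from -2.09 to -0.66 at resolution 1.2, on 17 UMIs in 29 control Ab cells. After thinning to 1000 UMIs it ran from -1.72 to -0.69, so each included values short of the fold. Mertk stood at 585 CPM (1516 UMIs in 269 cells) with control Ab against 233 CPM (1525 UMIs in 1182 cells) with anti-CD9 Ab, which gave a log2 ratio of -1.33 (-1.43 to -1.23). Axl, at 184 and 71.2 CPM, had -1.37 (-1.55 to -1.19). Pros1 stood at 115 CPM (102 to 128) and 17.1 CPM (14.1 to 20.6), a ratio of -2.74 (-3.06 to -2.43), and Gas6 at 34.4 CPM (27.6 to 42.3) and 6.11 CPM (4.37 to 8.33), a ratio of -2.49 (-3.03 to -1.95). Of the 9589 genes with at least 50 UMIs in these cells, 11.1% were lower and 6.92% higher by that fold, with a median of -0.14. Summed over the class, the anti-CD9 Ab levels of Pros1 and Gas6 overlapped those of T cell-like cells, 13.9 CPM (9.86 to 19.1) and 2.20 CPM (0.81 to 4.79). These sums could not be told from the T cell-like level. Neutrophil-like cells of that library held less of both, with 5.25 CPM (3.06 to 8.40) of Pros1 and 1.85 CPM (0.680 to 4.03) of Gas6. Gas6 was uneven within the class, and in the lipid-handling-like sub-cluster described below it was apart from the T cell-like level, at 22.9 CPM (14.2 to 35.0, 21 UMIs).

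Most of the control Ab UMIs of each of the 4 genes, as of all genes, lay in 1 sub-cluster of the class. Clustered alone, the class gave 6 sub-clusters, and 1 of them, made up of 82 cells of the control Ab and 58 of the anti-CD9 Ab library, was 78.6% predicted doublets. It held 71.9% of the control Ab Mertk UMIs of the class, 75.8% of Pros1, 69.7% of Gas6 and 52.6% of Axl, but 11.7%, 20.5%, 25.0% and 7.08% with anti-CD9 Ab. Over all genes, it held 1403091 of the 2589669 control Ab UMIs and 484991 of the 6542561 anti-CD9 Ab UMIs of the class. The 12 microglial markers summed to 7159 CPM in the control Ab and 957 CPM in the anti-CD9 Ab cells of the class, all 12 lower, with none at 0 in either library. Without that sub-cluster and a smaller one of predicted doublets, a choice made after seeing the data, Mertk had a ratio of -0.69 (-0.85 to -0.54), Axl -1.38 (-1.61 to -1.14), Pros1 -2.07 (-2.53 to -1.62) and Gas6 -2.12 (-2.88 to -1.37), so that Axl was level with its value in the whole class and the other 3 were closer to 0. With predicted doublets left out of the whole class, the ratios were -0.96 (-1.11 to -0.82) for Mertk, -1.66 (-1.91 to -1.42) for Axl, -2.48 (-2.91 to -2.05) for Pros1 and -2.17 (-2.88 to -1.46) for Gas6, so that 3 of the 4 remained past the fold, beside 7.39% of 8290 genes lower and 7.08% higher. The markers still summed to 5871 and 944 CPM there. The part of microglial RNA in these ratios was not tested.

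The libraries also filled different sub-clusters. Lipid-handling-like cells, led by Fabp5 and Gpnmb, were 43.1% of the class with control Ab against 14.0% with anti-CD9 Ab, whereas inflammatory-like cells, led by Nos2, were 4.09% and 35.9% and monocyte-like cells 6.69% and 19.9%. The lipid-handling-like sub-cluster was the only named one with over 50 cells in each library. Axl stood there at 184 CPM (155 to 219, 134 UMIs) with control Ab against 124 CPM (102 to 149, 114 UMIs) with anti-CD9 Ab, a ratio of -0.57 (-0.93 to -0.21). Mertk, at 300 CPM (262 to 343) and 361 CPM (323 to 402), had a ratio of 0.26 (0.02 to 0.51), with the sign opposite to that of the whole class. Microglial markers summed to 3260 and 1483 CPM in it. Gas6 was at 26.2 CPM (15.8 to 40.9) and 22.9 CPM (14.2 to 35.0) and Pros1 at 38.6 CPM (25.6 to 55.7) and 21.8 CPM (13.3 to 33.7), each on under 50 UMIs.

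Within the anti-CD9 Ab library, the 4 sub-clusters in which doublets were the minority held 165 to 424 cells each, and the members differed between them. Mertk was 361 CPM in lipid-handling-like cells, 326 CPM (297 to 356) in an unnamed sub-cluster led by Tmem176b, Pf4 and Ms4a7, 159 CPM (143 to 175) in inflammatory-like cells and 90.3 CPM (72.5 to 111) in monocyte-like cells. Axl was 124, 83.3 (69.2 to 99.4), 50.9 (42.5 to 60.5) and 66.0 CPM (50.9 to 84.1) in the same order. Of the 40 Gas6 UMIs of the class, 21 lay in the lipid-handling-like cells, and inflammatory-like cells held 1 Gas6 UMI in 424 cells. The Pf4-led sub-cluster had 227 CPM of Axl (178 to 285, 74 UMIs in 41 cells) with control Ab, a ratio of -1.45 (-1.86 to -1.03), beside microglial markers of 7287 and 1449 CPM.

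The other classes held fewer UMIs of these 4 genes. In dendritic cell-like cells Axl had a ratio of -0.57 (-1.06 to -0.08) and Mertk, at 37.7 and 41.5 CPM, 0.14 (-0.51 to 0.79). Pros1 stood there at 37.7 CPM (24.6 to 55.2) and 18.4 CPM (12.6 to 26.0), a ratio of -1.03 (-1.78 to -0.28). Plasma cell-like cells had the largest Mertk ratio of the classes with enough UMIs, -2.07 (-2.77 to -1.37), on 86 and 20 UMIs and at low levels of 57.6 and 13.7 CPM. The 12 microglial markers summed to 658 and 127 CPM in plasma cell-like cells and to 1212 and 529 CPM in dendritic cell-like cells, control Ab first. The part of microglial RNA in the ratios of these classes was not tested. In astrocyte-like cells Axl had a ratio of 1.43 (0.55 to 2.30) on 42 and 14 UMIs and Mertk 0.23 (-0.17 to 0.64). An unnamed cluster of shallow cells whose markers were nearest to microglia had the highest Mertk level of any cluster of all cells, 1893 CPM (1749 to 2046) and 1832 CPM (1652 to 2026). With anti-CD9 Ab that level overlapped the homeostatic-like microglia, at 1714 CPM (1647 to 1782). Pros1 of the unnamed cluster, at 434 CPM (366 to 510) with control Ab, was above that of microglia-like cells. At 291 CPM (222 to 374) with anti-CD9 Ab it overlapped them. Another unnamed cluster held 95.8 CPM of Gas6 with control Ab (41.3 to 189, 8 UMIs in 31 cells), which overlapped microglia-like cells. Over all kept cells, with no regard to type, every member was lower with anti-CD9 Ab, with Mertk at 663 and 302 CPM, beside the smaller share of microglia-like cells in that library.

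The genes around the TAM system were read from 8 lists of 45 genes. In microglia-like cells 37 of them had at least 50 UMIs, of which 17 were lower and 20 higher, 3 and 4 past the fold, beside 4.34% and 3.3% of all genes, with a median log2 ratio of 0.08. In monocyte/macrophage-like cells 35 had enough, of which 20 were lower and 15 higher, 8 and 5 past the fold, beside 11.1% and 6.92% of all genes, with a median of -0.20. With predicted doublets left out the balance past the fold turned, to 3 lower and 6 higher of 33 genes, beside 7.39% and 7.08%. Microglial markers were lower in the monocyte/macrophage-like cells with anti-CD9 Ab. The part of microglial RNA in the ratios of the listed genes there was not tested. The medians of all genes were 0.01 and -0.14, so the lists were near them, while larger shares of the lists than of all genes were past the fold. The lists were chosen with earlier results of these data known, so no conclusion is drawn from those shares.

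Among the other receptors for phosphatidylserine, Trem2, a lipid receptor of microglia, stood at 2236 and 1085 CPM in microglia-like cells, a ratio of -1.04 (-1.10 to -0.99), and had -2.19 (-2.26 to -2.12) in monocyte/macrophage-like cells. Cd300lf, a receptor of the CD300 family with inhibitory motifs, went from 33.3 to 216 CPM in microglia-like cells, a ratio of 2.70 (2.51 to 2.90), and had 1.24 (0.99 to 1.49) in monocyte/macrophage-like cells. Neutrophil markers were also higher in the microglia-like cells, at a summed 532 and 1612 CPM, and their part in the Cd300lf ratio was not tested. Stab1, a scavenger receptor, had 0.51 (0.32 to 0.69) and 1.33 (1.10 to 1.56). The Tim receptors Timd4 and Havcr1 held 3 UMIs or fewer in microglia-like and in monocyte/macrophage-like cells of each library. Mfge8, the bridging molecule of the integrin route, was low, with 65 and 5 UMIs in microglia-like cells and a ratio of -2.0 (-3.31 to -0.69). Of its integrin receptors, Itgb5 stood at 992 and 1047 CPM (0.08, 0.02 to 0.14) and Itgav at 254 and 250 CPM (-0.02, -0.14 to 0.10) in microglia-like cells, and both were lower in monocyte/macrophage-like cells, by -1.15 (-1.25 to -1.06) and -1.32 (-1.45 to -1.19). With predicted doublets left out of that class, Itgb5 had -0.83 (-0.96 to -0.70) and Itgav -1.64 (-1.81 to -1.48).

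Among engulfment receptors of other kinds, the scavenger receptor Cd36 had a ratio of 1.86 (1.56 to 2.16) in microglia-like and -2.08 (-2.76 to -1.41) in monocyte/macrophage-like cells, and Lrp1 had -0.80 (-0.94 to -0.67) and -0.63 (-0.75 to -0.51). Of the 8 measured genes of the engulfment machinery below the receptors, none passed the fold in microglia-like cells, which with 8 genes is near the share of all genes, with Elmo1 at -0.24 (-0.29 to -0.19), Dock2 at 0.19 (0.13 to 0.26) and the lipid exporter Abca1 at 0.39 (0.30 to 0.47). In monocyte/macrophage-like cells 1 of the 8 passed it, Elmo1 at -1.08 (-1.17 to -0.99), which is near the 11.1% of all genes lower by that fold. Dock2 had -0.71 (-0.81 to -0.60), Abca1 0.85 (0.74 to 0.97) and Elmo2 0.82 (0.15 to 1.49). With predicted doublets left out, Elmo1 had -0.78 (-0.91 to -0.65) and Elmo2 1.30 (0.30 to 2.31). Vkorc1, which recycles the vitamin K needed to carboxylate Gas6 and Pros1, had -0.67 (-0.90 to -0.44) in microglia-like and -1.55 (-1.86 to -1.25) in monocyte/macrophage-like cells. All 3 genes of that list had ratios below 0 in microglia-like cells, beside 49.4% of all genes, and Ggcx among them was level at -0.07 (-0.71 to 0.58). Adam10 and Adam17, the proteases that shed Mertk and Axl, had 0.32 (0.22 to 0.42) and 0.29 (0.17 to 0.42) in microglia-like cells. Of the genes that expose or flip phosphatidylserine, Atp11a had 1.59 (1.06 to 2.12) in monocyte/macrophage-like cells and Tmem30a -0.42 (-0.63 to -0.22) in microglia-like cells.

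The list of TAM feedback and signal partners had medians of 0.53 in microglia-like and 0.39 in monocyte/macrophage-like cells. In each, 5 of 7 genes were higher, whereas 49.4% and 60.4% of all genes were lower. Of the 7, 2 were past the fold upwards in each, beside 3.3% and 6.92% of all genes. Pik3r1, a subunit of the kinase PI3K, was past the fold downwards in monocyte/macrophage-like cells, at -1.0 (-1.19 to -0.81). With predicted doublets left out it was not, at -0.57 (-0.86 to -0.28). Socs3, a brake on cytokine signalling, stood at 27.5 and 157 CPM in microglia-like cells, a ratio of 2.52 (2.30 to 2.74), and had 3.41 (3.07 to 3.74) in monocyte/macrophage-like cells. The part of neutrophil RNA, whose markers were higher in microglia-like cells with anti-CD9 Ab, in the Socs3 ratio was not tested. Socs1, the brake best known for interferon signalling, had 1.03 (0.66 to 1.41) and 2.90 (2.43 to 3.37). Ifnar1, which pairs with Axl in the known feedback, had 0.70 (0.48 to 0.92) in microglia-like cells, and Ifnar2 -0.08 (-0.17 to 0.01).

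**Figure D4:**
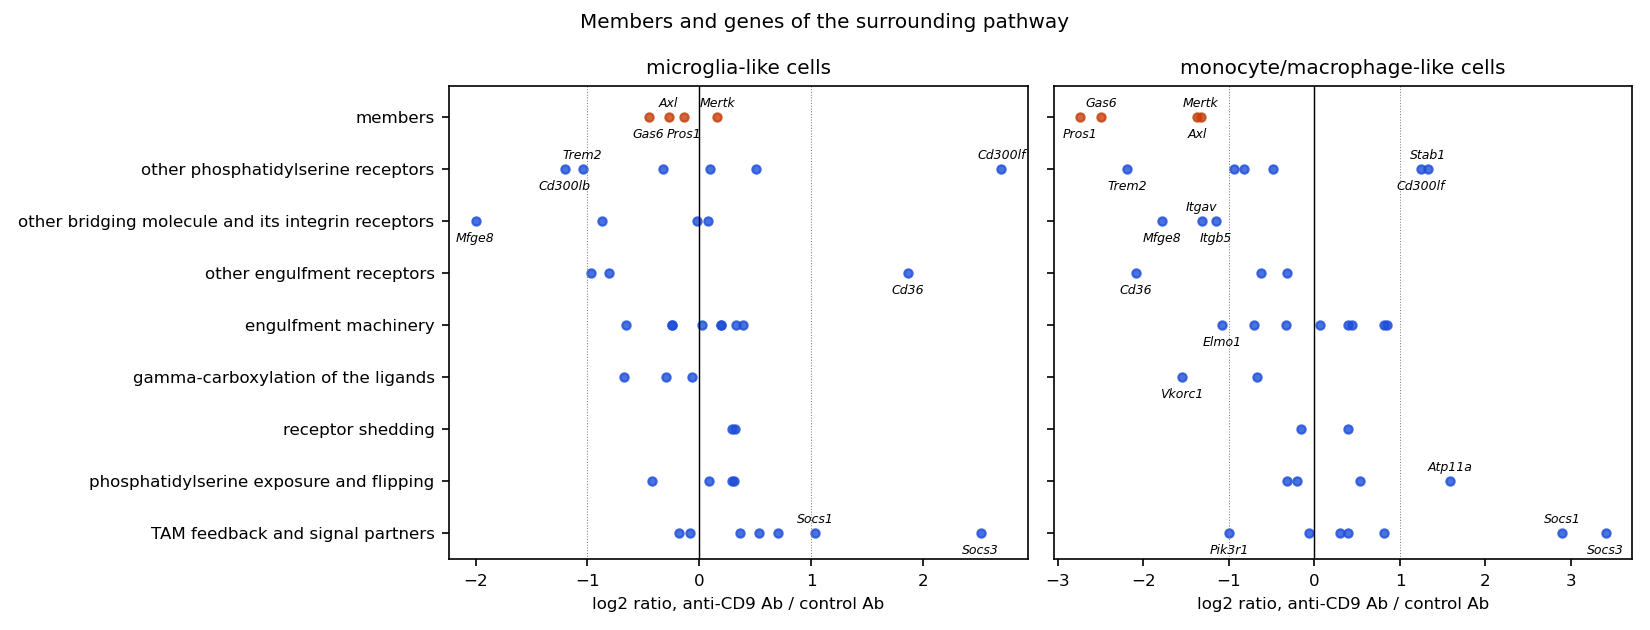
Log2 ratio of anti-CD9 Ab over control Ab (horizontal axis) for the members (orange) and the genes of the 8 surrounding lists (blue) with at least 50 UMIs, in microglia-like (left) and monocyte/macrophage-like cells (right), dotted lines at a log2 size of 1; in the surrounding lists the genes past that size are named. The members lie between -0.45 and 0.16 on the left and between -2.74 and -1.33 on the right, and Socs3 lies at 2.52 and 3.41.

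The genes whose levels ran most like each member were read over 16 profiles, the 8 classes with at least 50 cells in each of the 2 libraries, among 9355 genes, on the log2(CPM + 10) scale. For Axl the 5 most alike were Cmtm3 (Pearson r = 0.968), Zfp385a (0.942), Map4k3 (0.911), Dhdh (0.904) and Plxnb2 (0.902). For Mertk, genes among the most alike were Lhfpl2 (0.948), Etv5 (0.945), Lrp12 (0.942) and Itgb5 (0.941), of which Itgb5 also stands in the integrin list above. For Gas6 they were 2610203C22Rik (0.947), Zfp697 (0.945), Chst1 (0.926), Lrp5 (0.922) and Xlr (0.922), and for Pros1 Ctc1 (0.956), Abhd6 (0.952), Phyhd1 (0.950), Sall3 (0.949) and Fam91a1 (0.948). The profiles of a library share its depth and its free RNA, so these are descriptions. Tyro3 had under 200 UMIs in all and was left out.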

How the data were processed

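Droplet scRNA-seq (10x Genomics 3′, v.3.1) gave 1 library per antibody. The values are raw UMI counts per gene and barcode as the authors deposited them, and the submitters' processing notes name Cell Ranger 8.0.0 and GRCm39, whereas the methods of the study name an earlier version and build. The number of mice pooled per library is not given in the sources used here. No barcode was under 500 UMIs. Cells with 200 to 7500 genes and at most 2% mitochondrial counts were kept, as in the methods of the study, and were integrated by anchors and clustered in Seurat 5.3.0 (2000 variable genes, 30 PCs, resolution 0.8) with the members and the surrounding lists left out of the variable genes. A cluster was named where at least 50% of the markers of a type, and at least 3, were higher by a log2 ratio of 1, unless over 50% of its cells were predicted doublets or a second type had 75% of its markers. Doublets were scored from simulated pairs and were kept in the classes. The deposited tables were not annotated with cell types, so names were rebuilt here. UMIs were summed over the cells of a class in a library, scaled to their total (CPM), and given with exact 95% intervals, which cover counting error only. Log2 ratios needed at least 50 UMIs over both libraries and over 3 in each, and their intervals are normal approximations. Such a ratio was run on simulated Poisson counts. Those counts follow the model that the interval assumes, so that run checks the calculation only and not the ratios between the libraries. With 1 library per antibody no test was made. Text names the members, genes of the lists with the largest ratio or level, and the 5 genes most alike each member; 1 gene of the lists and 1 of the most alike are not reported here. The members and lists were chosen with earlier results of these data known. Alternatives were other limits, clusterings, weights and depths, whose effect is given below.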

Additional observations from a re-analysis of the deposited data

Results flagged for a closer look

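Some members had ratios of anti-CD9 Ab over control Ab whose counting intervals lay on opposite sides of 0 in different clusters of a class. The difference between the clusters was not tested, since each antibody has 1 library. Axl had a log2 ratio of 0.33 in homeostatic-like and -0.44 in damage-associated-like microglia (clusters 2 and 4 of all cells). In microglia-like cells clustered alone, Mertk had 0.15 in the damage-associated-like cluster 0, 0.26 and 0.25 in the homeostatic-like clusters 1 and 3, and 0.68 in the unnamed cluster 4, which is led by T cell genes and is 69.9% predicted doublets, against -0.74 in the interferon-responsive-like cluster 7 of 22 and 14 cells. In monocyte/macrophage-like cells clustered alone, Mertk had 0.26 in the lipid-handling-like sub-cluster, -0.79 in the unnamed Pf4-led sub-cluster and -1.08 in the unnamed sub-cluster of which 78.6% are predicted doublets.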

How the results depend on the processing

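With 1 library per antibody, no sample could be left out and no replicate supports any ratio, and depth limits Tyro3 in every class and Gas6 in macrophages. Log2 ratios of anti-CD9 Ab over control Ab are given, and where a value moved by more than the counting interval the cause was not tested. In microglia-like cells, Mertk was above 0 in all 11 alternatives, Gas6 and Pros1 below 0 in all 11, and Axl below 0 in 10 of 11. These are signs of point values. The Pros1 interval included 0 with no integration, 20 PCs, predicted doublets left out and cells typed one by one. So did that of Gas6 thinned to 1000 UMIs, and that of Axl thinned and with no integration. Equal weights had no interval. Axl was -0.47 with at most 5% mitochondrial counts, -0.0285 with no integration and 0.10 with each cell weighing the same. Mertk was 0.0712, 0.32 and 0.0797 under these and 0.22 with 20 PCs, Gas6 was -1.01 with no integration, and Pros1 was -0.29 with equal weights. With no integration, 184 anti-CD9 Ab cells stayed microglia-like. In monocyte/macrophage-like cells, Mertk was -0.0205 at 5% mitochondrial counts, 0.0585 with no integration, with its sign turned, -0.23 at resolution 1.2, -0.78 with 20 PCs, -0.71 with another seed, -0.58 thinned to 1000 UMIs, -1.04 with equal weights, -0.96 without predicted doublets, -1.12 with cells typed one by one and -0.69 without sub-clusters of predicted doublets. Pros1 was -0.92, -0.65, -1.80, -2.19 and -2.08 under the first 5 of these, and -2.16, -2.10 and -2.07 with equal weights, cells typed one by one and without those sub-clusters. Gas6 was -0.63 at 5% and -1.75 with cells typed one by one, and had too few UMIs with no integration, at resolution 1.2 and after thinning, as did Pros1 after thinning. Axl was -1.66 without predicted doublets and between -1.66 and -1.21 in all 10 alternatives. At resolution 1.2 only 29 control Ab cells stayed monocyte/macrophage-like, with 17 Axl, 19 Mertk and 8 Pros1 UMIs. The median of the surrounding lists was 0.0902 and 0.0807 at 200 and 10 UMIs. Leaving out sub-clusters of predicted doublets, and adding unnamed clusters nearest to microglia, were chosen after seeing the data.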
